A study of Mus musculus with 12 samples.

Results

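Kelch genes were followed in the tibialis anterior of mice, a fast muscle on the shin, across 12 RNA sequencing libraries. Members were the rows of the count table whose symbol is Klhl or Kbtbd followed by a number, or Klhdc followed by a number and at most 1 letter. This rule matched 56 of 26264 genes: 37 Klhl, 9 Kbtbd and 10 Klhdc genes. A total of 47 had at least 10 counts in 4 or more of the 12 libraries and were kept, and 46 of these passed the filter of the differential test. The libraries form 3 groups of 4. Gel muscle received 50 µl of a matrix gel at 6 mg per ml in the left leg, PBS muscle received 50 µl of phosphate-buffered saline, the vehicle, in the right leg, and the third group was uninjured. The series title places the gel, which is derived from a tissue's extracellular matrix, in recovery from acute and chronic disuse injury of muscle. By the deposited names, a gel library and the PBS library of its number are 2 legs of 1 animal. The sources used here do not give the kind or time of any injury, or the strain, sex and age of the mice, and gel, PBS and uninjured libraries carry no other label. Side of the body goes with treatment in every gel and PBS library, so the 2 cannot be told apart.

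Most kelch proteins of the Klhl and Kbtbd families pair a BTB domain, which binds the scaffold cullin 3, with a propeller of kelch repeats, which binds a substrate. They thereby act as substrate adaptors of cullin 3 ubiquitin ligases. Klhdc proteins carry kelch repeats, and several of them, Klhdc2, Klhdc3 and Klhdc10 among these, are substrate receptors of the cullin 2 ligase that recognise the ends of proteins. In skeletal muscle the family is known for sarcomere upkeep: mutations in KLHL40, KLHL41 or KBTBD13 cause nemaline myopathy, a congenital disease with rod-shaped protein deposits in fibres, and KLHL40 protects the thin-filament proteins nebulin and leiomodin 3.

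Levels are in CPM, the share of a library's counts in units of 1e-06, after scaling of the libraries by the trimmed mean of M values. Library totals ran from 15626086 to 22182483 counts. Among genes with 10 to 100 counts, 73.4% to 79.6% of the counts in a library were even numbers, and 9 of the 47 kept members had an even count in all 12 libraries, a pattern that counting each fragment as 2 reads would give, so depth in fragments may be lower than the totals. The 10 fibre markers, which define the labelled tissue, summed to 250402 to 279433 CPM in uninjured, 223751 to 255448 CPM in PBS and 149645 to 229077 CPM in gel libraries. Among the gel libraries, library 3 differed most in these markers. Its 12 macrophage markers summed to 99.7 CPM, against 1010 to 1832 CPM in gel libraries 1, 2 and 4, 28.6 to 60.2 CPM in PBS and 39.7 to 79.8 CPM in uninjured libraries. Its 10 fibroblast markers summed to 690.0 CPM against 3314 to 4108 CPM in the other gel libraries, 584 to 1398 CPM in PBS and 712 to 1076 CPM in uninjured libraries, and its fibre markers to 229077 CPM against 149645 to 188301 CPM. Every marker of these 3 lists had counts in each group. Fold changes of called members and listed genes in the gel comparisons, and their counts, are therefore also given without this library. P-values measure the spread between these libraries, each group's from 4 numbered animals.

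Promoter sequence is shown for 4 members: Klhl40 and Klhl41, the kelch nemaline myopathy genes with the highest levels here, Kbtbd13, the member with the smallest p between PBS and uninjured muscle, and its relative Kbtbd12. Each run is the 250 bases before the start of the gene, 5′ to 3′, from RefSeq on build GRCm38.p6, which is not the build of the counts. The windows are chr6:88627430-88627679 on the minus strand, chr9:65391653-65391902 on the minus strand, chr9:121777357-121777606 on the plus strand and chr2:69669870-69670119 on the plus strand. Capitals mark CTANNNNTAG, whose fixed letters are those of the core of a MEF2 site, and CAGCTG, an E-box form bound by myogenic factors. The N places of the first pattern were open to any base, so it is looser than a MEF2 site. They hold only A and T in Kbtbd12 and Klhl41, and a C among them in Kbtbd13.
Kbtbd12: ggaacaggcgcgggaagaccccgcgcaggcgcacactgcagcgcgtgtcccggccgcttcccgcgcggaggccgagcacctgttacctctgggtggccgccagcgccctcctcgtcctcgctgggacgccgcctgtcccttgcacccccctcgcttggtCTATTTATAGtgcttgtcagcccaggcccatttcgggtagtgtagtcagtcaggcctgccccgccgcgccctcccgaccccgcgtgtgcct
Kbtbd13: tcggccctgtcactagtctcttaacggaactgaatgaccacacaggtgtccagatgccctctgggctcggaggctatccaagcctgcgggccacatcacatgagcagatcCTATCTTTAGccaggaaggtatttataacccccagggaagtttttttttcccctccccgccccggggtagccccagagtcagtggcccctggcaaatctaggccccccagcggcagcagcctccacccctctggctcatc
Klhl40: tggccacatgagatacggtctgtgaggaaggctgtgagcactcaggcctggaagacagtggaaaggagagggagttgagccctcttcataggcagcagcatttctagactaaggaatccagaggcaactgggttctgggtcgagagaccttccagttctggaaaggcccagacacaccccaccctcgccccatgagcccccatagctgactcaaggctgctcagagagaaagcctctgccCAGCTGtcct
Klhl41: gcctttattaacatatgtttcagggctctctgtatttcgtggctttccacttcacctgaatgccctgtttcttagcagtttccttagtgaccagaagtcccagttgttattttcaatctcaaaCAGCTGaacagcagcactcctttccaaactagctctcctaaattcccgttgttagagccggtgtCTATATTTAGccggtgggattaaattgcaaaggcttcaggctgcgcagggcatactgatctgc
Both patterns read the same on either strand, so each match counts for both, and none of the marked matches overlap. CTANNNNTAG begins 91 bases before the start of Kbtbd12, 140 before that of Kbtbd13 and 63 before that of Klhl41. It lies in 5 of the 60 member promoters (8.33%), those of Kbtbd12, Kbtbd13, Klhdc8b, Klhl33 and Klhl41, and in 3.20% of the 32851 promoters examined. CAGCTG begins 10 bases before the start of Klhl40 and 127 before that of Klhl41, and lies in 16.7% of member promoters and 13.0% of all. A further pair of patterns were searched on both strands, ACANNNTGT, found in 3 of the member promoters and 5.84% of all, and GTAAACA, found in 0 of 60 and 3.17% of all. A match is a run of letters and not a measured binding site.

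In uninjured muscle the members spanned a wide range of levels per kilobase of exon, a scale on which genes of different length can be compared (exon lengths from GENCODE M21, available for 45 of the 46). Klhl41, which acts in sarcomere assembly, was highest at 124.6 ± 6.44 CPM per kb (SD, n = 4). Klhdc3 followed at 78.6 ± 4.77 and Klhl31, a muscle kelch gene whose product acts on filamin C, at 69.9 ± 6.54 CPM per kb, and the libraries of these 2 overlapped (73.1 to 83.1 and 60.8 to 76.5). Klhdc2 stood at 54.7 ± 2.88 CPM per kb. Klhl40 (30.8 to 48.7), Klhl30 (24.7 to 30.2), Klhl38 (13.6 to 34.5) and Klhl33 (20.9 to 26.4 CPM per kb) came next; Klhl38 overlapped each of the other three, and Klhl30 overlapped Klhl33. Klhl21, at 14.6 ± 1.41 CPM per kb, led the remaining members, and the lowest was Klhl15 at 0.0572 ± 0.0319 CPM per kb. The 6 muscle members Klhl40, Klhl41, Klhl30, Klhl31, Klhl33 and Klhl38 made up 59.97% to 62.7% of the members' summed CPM in uninjured libraries, 59.0% to 64.2% in PBS and 57.4% to 63.1% in gel libraries.

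**Figure D1:**
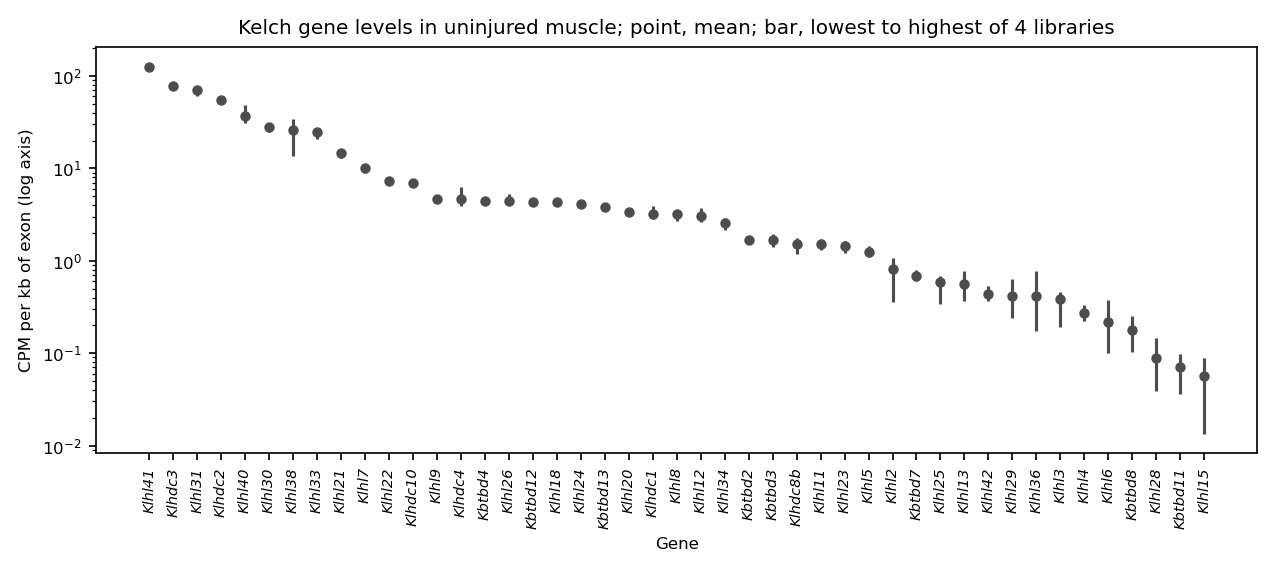
Level of 45 kelch genes in uninjured muscle in CPM per kb of exon, on a log axis, with the mean as a point and the lowest to highest of 4 libraries as a bar. Klhl41 was highest at 124.6 CPM per kb and Klhl15 lowest at 0.0572 CPM per kb.

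Members outside the count rule were scarce in this muscle. Klhl1 had no count in the 12 libraries together, which allows up to 0.0275 CPM if a fragment adds 2 counts and 0.0137 CPM if it adds 1 (3 fragments, 218511641 counts in all, counting error only). Klhl14, Klhdc7b, Klhdc7a, Klhl35, Kbtbd6, Klhdc9 and Klhl32 had 2, 2, 8, 18, 16, 16 and 20 counts over the 12 libraries. Klhl10, a gene known from sperm development, lay just outside the rule with 10 or more counts in 2 libraries, at 7, 11, 1 and 26 counts in gel libraries 1 to 4. Klhdc8a lay just inside, with 10 or more counts in 4 libraries, at 6, 4, 10 and 20 counts in gel, 6, 10, 4 and 20 in PBS and 0, 0, 2 and 4 in uninjured libraries, and was not tested because the filter of the fit removed it.

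**Figure D2:**
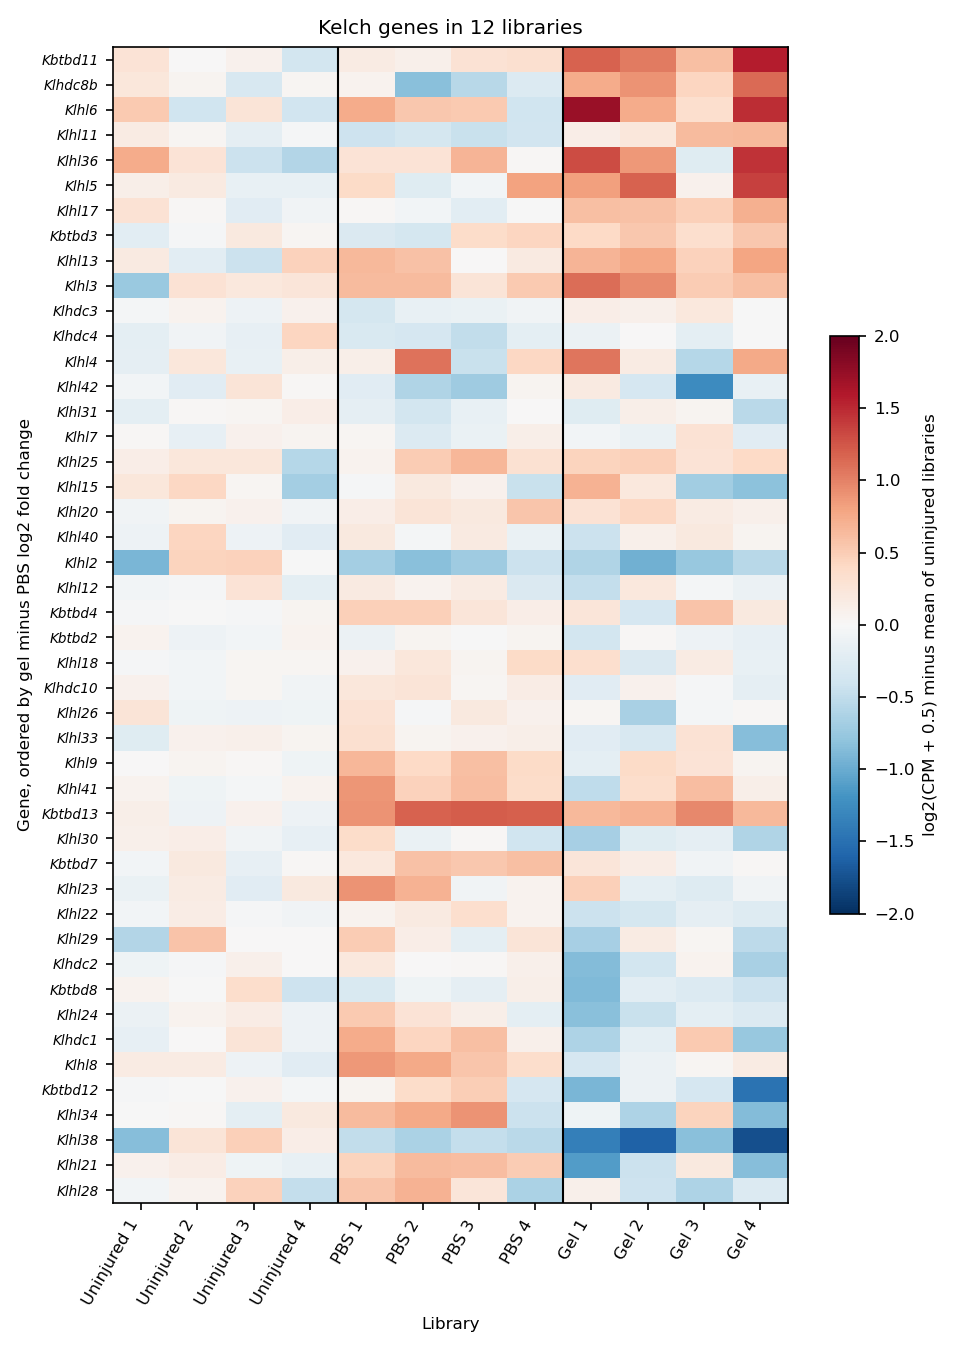
Levels of the 46 tested kelch genes (rows, ordered by the gel minus PBS log2 fold change) in 12 libraries (columns), as log2(CPM + 0.5) minus the mean of the 4 uninjured libraries. Kbtbd13 is higher in all 4 PBS libraries, Klhl38 is lower in all 4 gel libraries than in any PBS library, and gel library 3 is paler than the other gel libraries for Klhl5, Klhl6 and Klhl36 near the top and Klhl21 near the bottom.

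PBS muscle was first compared with uninjured muscle, a comparison in which any injury, the injection, the gel in the other leg, the side of the body (by the deposited names, uninjured muscles are left ones) and the set of animals differ together and cannot be told apart. Of 46 kelch genes 3 were called, and these 3 were higher: Kbtbd13, Klhl8 and Klhl9. That is 6.52% of the members beside 6.17% of all 13499 genes tested with 2.79% of all genes higher and 3.39% lower. Groups did not overlap for 10 members (21.7%), and for 20.6% of all genes. Both shares are near the background, and the median log2 fold change of the members was 0.18 (all genes, 0.00). Without PBS library 1 or 2 or uninjured library 3 or 4 the count was 1, when 2.71% to 3.19% of all genes were called. With the compared groups alone the count was 6, among them Klhl21 at 0.56 (edgeR adjusted p = 0.000486), and 18.3% of all genes were called. Leaving gel library 3 out of the common fit made the count 5, with 12.1% of all genes called. Calls are edgeR quasi-likelihood tests with Benjamini-Hochberg adjustment over all genes and a threshold of 0.05, and fold changes are given with their standard error (SE). Of other cell types' markers, 4 of 8 tested tendon cell markers were lower in PBS muscle (list sum 193.6 to 258.0 CPM in uninjured, 78.1 to 140.7 CPM in PBS libraries), and their part in the results was not tested.

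Kbtbd13, which encodes a cullin 3 adaptor of muscle, was at 12.4, 10.6, 12.03 and 10.5 CPM in uninjured libraries 1 to 4 and at 21.5, 26.3, 26.9 and 26.5 CPM in PBS libraries 1 to 4. Every PBS library lay above every uninjured library. The log2 fold change was 1.15 ± 0.13 (edgeR adjusted p = 0.000116), and the call held in each of the alternatives run. Klhl8, whose worm relative acts on rapsyn, a scaffold of the acetylcholine receptor, went from 11.7, 11.7, 9.67 and 8.86 CPM to 19.4, 17.8, 15.5 and 13.4 CPM. These groups did not overlap either, and Klhl8 rose by 0.66 ± 0.16 (adjusted p = 0.0244). The Klhl8 call failed without any single one of PBS libraries 1 or 2 or uninjured libraries 3 or 4 (adjusted p from 0.0823 to 0.0945). Klhl9, which with Klhl13 forms a cullin 3 ligase for the mitotic kinase Aurora B, went from 19.4, 20.2, 19.7 and 18.4 CPM to 30.9, 25.9, 29.8 and 25.6 CPM. The groups stood apart, with PBS libraries 1 and 3 the highest, and the log2 fold change was 0.53 ± 0.13 (adjusted p = 0.0260). Its call failed without any single one of PBS libraries 1, 2 or 3 or uninjured libraries 1, 2, 3 or 4 (adjusted p from 0.0505 to 0.0927). Klhl9 and Klhl13 are close paralogs, and how reads that match both were counted is not given in the sources used here.

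Among the muscle members, Klhl41 came closest to a call. It was at 329, 297, 305 and 329 CPM in uninjured and 578, 431, 481 and 405 CPM in PBS libraries, so that every PBS library was higher, with a log2 fold change of 0.59 ± 0.19 (edgeR adjusted p = 0.0784). It passed with DESeq2 (adjusted p = 0.0291), with the compared groups alone (edgeR, 0.000598), and without gel library 1 (0.0181) or 3 (0.0197), which add to the shared estimate of spread. Klhl40 overlapped between the groups, at 79.2, 115, 79.9 and 73.1 CPM in uninjured and 98.3, 82.98, 96.9 and 77.7 CPM in PBS libraries, with a log2 fold change of 0.034 ± 0.16 with a 95% interval of -0.33 to 0.40 (adjusted p = 0.932). Klhl38, a muscle member of unsettled function, was at 30.1, 65.4, 76.4 and 59.9 CPM in uninjured and 38.8, 35.3, 39.1 and 37.5 CPM in PBS libraries. Uninjured library 1 lay below all PBS libraries and the other three above them. The log2 fold change of Klhl38 was -0.62 ± 0.25 (adjusted p = 0.157), and without uninjured library 1 it was -0.83 and passed (adjusted p = 0.0210). Klhl31 and Klhl33 were at -0.17 ± 0.15 and 0.15 ± 0.18 (adjusted p = 0.550 and 0.699). Klhl30 was at -0.012 ± 0.16 (adjusted p = 0.977), or 0.011 with upper-quartile scaling.

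**Figure D3:**
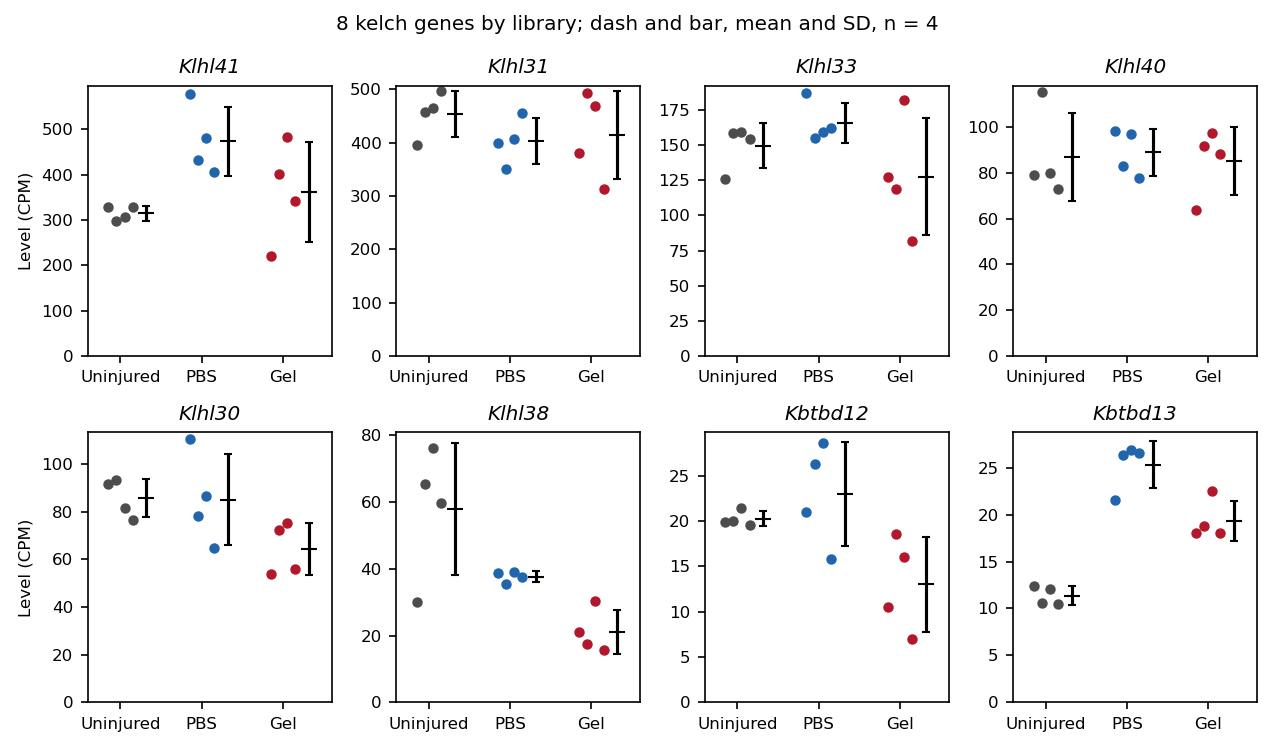
Level in CPM (from 0) of Klhl41, Klhl31, Klhl33, Klhl40, Klhl30, Klhl38, Kbtbd12 and Kbtbd13 in each library of the uninjured, PBS and gel groups, with the mean and SD of 4 libraries as a dash and bar. The 4 PBS libraries of Kbtbd13 sit between 21.5 and 26.9 CPM, above the uninjured ones at 10.5 to 12.4 CPM, and 1 uninjured library of Klhl38 sits at 30.1 CPM below the other three.

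Gel muscle was then compared with PBS muscle, which sets the gel against its vehicle. Of 46 kelch genes 13 were called, 9 lower and 4 higher in gel muscle, in a fit that does not pair the legs of an animal. The share called, 28.3%, lies beside 29.8% of all genes tested. By direction, 19.6% of members were lower, beside 13.2% of all genes, and 8.70% were higher, beside 16.6%. Groups did not overlap for 11 members (23.9%), and for 20.1% of all genes. The median log2 fold change of the members was -0.15, and that of all genes 0.04. Without gel library 3 the count was 20 (6 higher, 14 lower), when 42.7% of all genes were called, and these held all 13. Without gel library 1 or 4 the count was 8 in each case, when 25.6% and 18.1% of all genes were called. In a fit of the gel and PBS libraries alone, blocked by animal, 10 members were called, 8 of them among the 13, and 22.5% of all genes. Without the block, the same libraries gave 9 members and 19.3% of all genes. In bulk muscle, fewer cells of a type and less RNA per cell cannot be told apart, and macrophage markers (12 of 12 higher, median log2 fold change 4.47), fibroblast markers (5 of 10 higher), satellite cell markers (3 of 9 higher) and fibre markers (3 of 10 lower, 1 higher) moved in the same libraries. So did 1 of 10 endothelial markers (lower), 1 of 9 Schwann cell markers (higher) and 1 of 8 tested tendon cell markers (higher). Their part in the results below was not tested.

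The 9 members that fell were Klhl21, Klhl22, Klhl9, Klhl8, Klhl38, Kbtbd12, Kbtbd13, Klhl24 and Klhdc2. Klhl21, a cullin 3 adaptor for Aurora B, had the largest called fall: it was at 79.1, 89.8, 89.2 and 82.3 CPM in PBS and 26.5, 43.05, 66.2 and 32.04 CPM in gel libraries. All gel libraries were lower, with gel library 3 nearest to PBS, and the log2 fold change was -1.02 ± 0.21 (edgeR adjusted p = 0.00423), or -1.34 without gel library 3. Klhl22, an adaptor for the mitotic kinase PLK1 that also acts in amino-acid signalling to mTORC1, went from 19.99, 21.4, 23.99 and 19.8 CPM to 13.95, 14.8, 16.7 and 15.8 CPM. No gel library reached the PBS range, and Klhl22 fell by 0.48 ± 0.12 (adjusted p = 0.00773). Klhl9 was at 30.9, 25.9, 29.8 and 25.6 CPM in PBS and 16.9, 25.5, 23.6 and 20.2 CPM in gel libraries. Gel library 2 came next to PBS library 4, and the log2 fold change was -0.38 ± 0.13 (adjusted p = 0.0387). This Klhl9 call failed with only the compared groups in the fit (adjusted p = 0.0941), in the fit blocked by animal (0.102) or without any single one of gel libraries 1 or 4 or PBS libraries 1 or 3 (0.0862 to 0.0948). Klhl8 went from 19.4, 17.8, 15.5 and 13.4 CPM to 8.14, 9.56, 10.7 and 11.7 CPM, with no overlap, and fell by 0.72 ± 0.16 (adjusted p = 0.00502). For Klhl8 gel library 3 lay among the other gel libraries, and without it the log2 fold change was -0.76.

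Also lower in gel muscle were Klhl38, Kbtbd12 and Kbtbd13. Klhl38 was at 38.8, 35.3, 39.1 and 37.5 CPM in PBS and 20.96, 17.5, 30.4 and 15.8 CPM in gel libraries. The groups did not overlap, gel library 3 was the highest of the gel libraries, and the log2 fold change was -0.84 ± 0.25 (edgeR adjusted p = 0.0248), or -1.07 without gel library 3. The Klhl38 call failed without any single one of gel libraries 1, 2 or 4 or PBS library 3 (adjusted p from 0.0542 to 0.0769). Kbtbd12 went from 21.03, 26.3, 28.6 and 15.8 CPM to 10.5, 18.6, 15.99 and 6.95 CPM, and gel libraries 2 and 3 lay above PBS library 4. Its log2 fold change was -0.82 ± 0.26 (adjusted p = 0.0278), a call that failed with only the compared groups in the fit (adjusted p = 0.0788), without gel library 1 (0.0762), without PBS library 2 (0.0700) or without PBS library 3 (0.0783). In the fit blocked by animal Kbtbd12 was at -0.87 and passed (edgeR adjusted p = 0.00618). Kbtbd13 stood at 17.995, 18.7, 22.5 and 17.99 CPM in gel libraries, between the uninjured and most PBS values, and gel library 3 lay above PBS library 1. It was at -0.39 ± 0.12 against PBS (adjusted p = 0.0263), and that call failed with only the compared groups in the fit (adjusted p = 0.0612), in the fit blocked by animal (0.0640) or without any single one of gel libraries 1, 2 or 4 or PBS libraries 2 or 3 (0.0558 to 0.0727).

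Klhl24 and Klhdc2 completed the 9. Klhl24, whose product controls turnover of intermediate filament proteins, was at 48.1, 40.3, 36.1 and 28.8 CPM in PBS and 18.3, 24.2, 28.997 and 27.5 CPM in gel libraries. Gel library 3 reached the level of PBS library 4, and the log2 fold change was -0.63 ± 0.16 (edgeR adjusted p = 0.0104), which failed in the fit blocked by animal (adjusted p = 0.0552). Klhdc2, the cullin 2 receptor for proteins that end in a pair of glycines, went from 120.5, 104, 106 and 111 CPM to 57.004, 80.3, 109 and 66.6 CPM. Gel library 3 lay within the PBS range and the other three below it, so that the log2 fold change of -0.50 ± 0.16 (adjusted p = 0.0283) became -0.72 without gel library 3. The Klhdc2 call failed with only the compared groups in the fit (adjusted p = 0.0780), in the fit blocked by animal (0.0598) or without any single one of gel libraries 1, 2 or 4 or PBS libraries 1 or 4 (0.0502 to 0.0857). In the fit blocked by animal 10 members and 22.5% of all genes were called. Of these members 8 were among the 13, and the others were Klhdc1 at -0.76 (adjusted p = 0.0371) and Klhl34 at -0.82 (adjusted p = 0.0384).

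The 4 other called members rose in gel muscle. Klhdc8b, a kelch protein of the midbody that acts in cell division, went from 5.08, 2.50, 3.15 and 3.90 CPM in PBS to 8.43, 9.41, 6.71 and 11.2 CPM in gel libraries. Every gel library was higher, gel library 3 included, and Klhdc8b rose by 1.29 ± 0.24 (edgeR adjusted p = 0.00239). Klhl11 went from 2.57, 2.72, 2.52 and 2.64 CPM to 3.99, 4.30, 5.86 and 5.90 CPM. Its 4 PBS values lay close together, below each gel value, and gel library 3 was among the highest. The log2 fold change was 0.94 ± 0.22 (adjusted p = 0.00552). Klhl17, an actin-binding adaptor, was at 11.6, 11.04, 9.85 and 11.4 CPM in PBS and 17.8, 17.6, 16.3 and 19.2 CPM in gel libraries, again with no overlap, at 0.69 ± 0.14 (adjusted p = 0.00308). Kbtbd11 was scarce, at 0.592, 0.544, 0.687 and 0.720 CPM in PBS and 1.71, 1.51, 0.977 and 2.40 CPM in gel libraries. With halved counts it was not tested. Gel library 3 was the lowest gel value and still above PBS, and Kbtbd11 was at 1.38 ± 0.41 (adjusted p = 0.0210), a call that failed in the fit blocked by animal (adjusted p = 0.0547), without gel library 4 (0.108), without PBS library 1 (0.0538) or without PBS library 2 (0.0625).

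**Figure D4:**
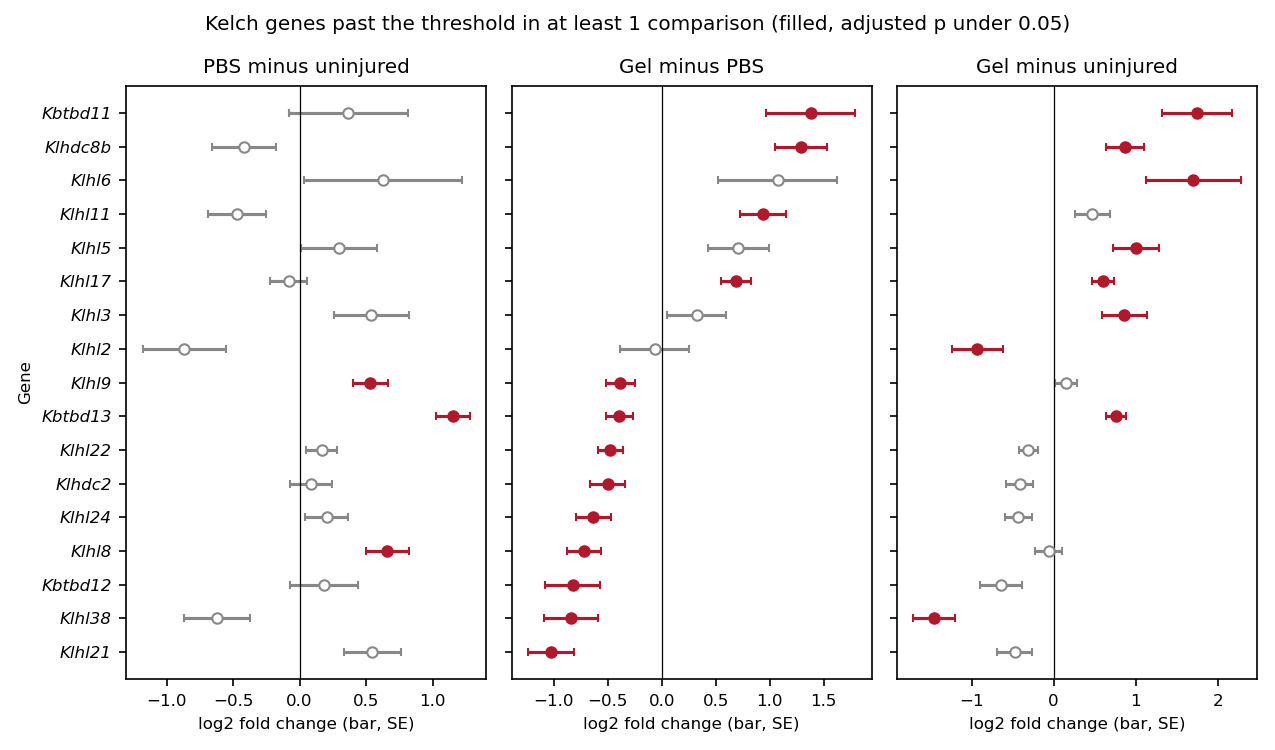
Log2 fold change with SE of the 17 kelch genes called in at least 1 comparison, for PBS minus uninjured, gel minus PBS and gel minus uninjured, filled where the adjusted p is under 0.05. Kbtbd13, Klhl8 and Klhl9 lie right of 0 in the first panel and left of 0 in the second, which share the PBS libraries.

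Of the muscle members, Klhl40, Klhl31, Klhl33, Klhl30 and Klhl41 did not pass between gel and PBS. Klhl41 was at 221, 402, 483 and 342 CPM in gel libraries. Klhl33 was at 187, 155, 159 and 162 CPM in PBS and 127, 119, 182 and 82.03 CPM in gel libraries, and Klhl30 at 110.4, 78.03, 86.8 and 64.9 CPM and 53.99, 72.3, 75.1 and 55.9 CPM. Gel library 3 held the highest value of all 3 genes in the gel group. Log2 fold changes were -0.39 ± 0.19, -0.38 ± 0.18 and -0.40 ± 0.16 (edgeR adjusted p = 0.135, 0.132 and 0.0676). Without gel library 3 they were -0.57, -0.61 and -0.50, and each passed (adjusted p = 0.0115, 0.00190 and 0.0160). Klhl30 also passed without PBS library 4 (adjusted p = 0.0257) and in DESeq2 (adjusted p = 0.0442). Klhl31 was at 399, 351, 407 and 456 CPM in PBS and 381, 493, 469 and 312 CPM in gel libraries, and Klhl40 at 63.7, 91.6, 97.6 and 88.5 CPM in gel libraries. Both overlapped between the groups. Their log2 fold changes were 0.038 ± 0.15 and -0.061 ± 0.16, with 95% intervals of -0.30 to 0.38 and -0.43 to 0.31 (adjusted p = 0.870 and 0.805), and their sign turned with some libraries left out.

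Gel library 3 was nearest to the PBS mean of the 4 gel libraries in 9 of the 13 called members, and inside the PBS range in 4: Kbtbd12, Kbtbd13, Klhdc2 and Klhl24. Over all 46 members it was nearest in 22 and inside the PBS range in 24. For Klhl11, Klhl8, Klhl9 and Kbtbd12 another gel library was nearer to PBS. Members gained without it were, beside the muscle genes given above, Klhl5, at 0.90 (edgeR adjusted p = 0.00476), Klhl36, at 1.14 (adjusted p = 0.0477), Klhl34, at -1.17 (adjusted p = 0.00421), and Klhdc1, at -1.06 (adjusted p = 0.000356) in place of -0.70 ± 0.25 (adjusted p = 0.0502). Klhl34 and Klhdc1 also passed in DESeq2. Of the called members not yet given without gel library 3, Klhdc8b, Kbtbd11, Klhl11 and Klhl17 were then at 1.39, 1.55, 0.85 and 0.71, and Kbtbd12, Klhl24, Klhl22, Kbtbd13 and Klhl9 at -0.95, -0.73, -0.53, -0.48 and -0.44.

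**Figure D5:**
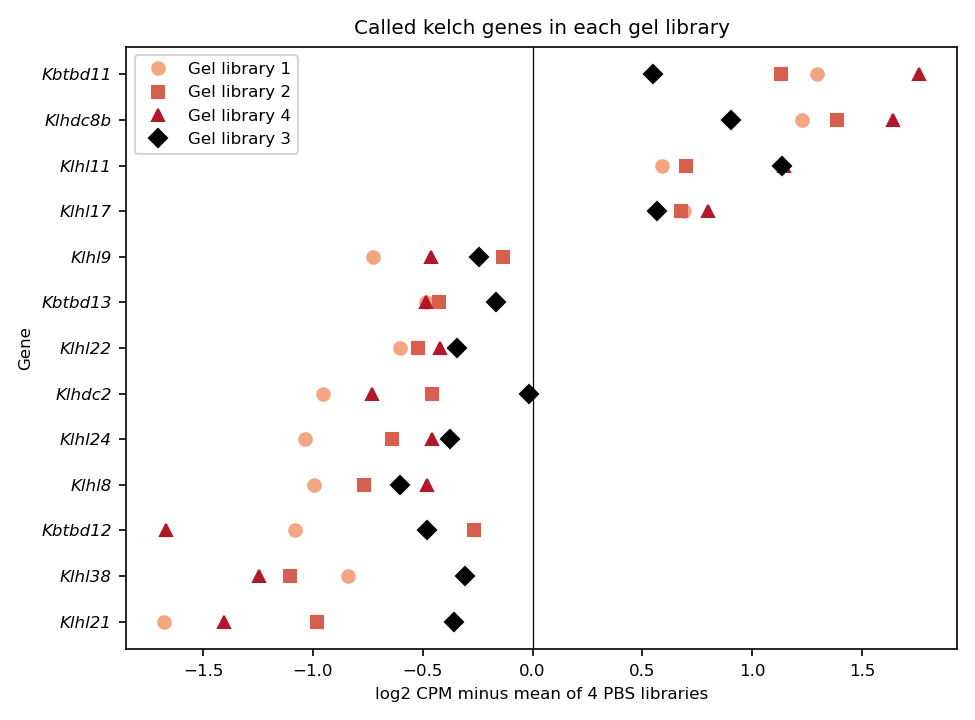
Log2 CPM of each gel library minus the mean of the 4 PBS libraries for the 13 kelch genes called between gel and PBS. Gel library 3 (black diamonds) is nearest to 0 in 9 of the 13 genes, and another gel library is nearer for Klhl11, Klhl8, Klhl9 and Kbtbd12.

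Kbtbd13, Klhl8 and Klhl9 were thus each higher in PBS than in uninjured muscle and lower in gel than in PBS muscle. These 2 comparisons share the PBS libraries, so the opposite signs are not independent. Against uninjured muscle directly, gel muscle was at 0.76 ± 0.13 for Kbtbd13 (edgeR adjusted p = 0.000860), -0.061 ± 0.16 for Klhl8 (0.817) and 0.15 ± 0.13 for Klhl9 (0.434). Every gel library of Kbtbd13 lay above every uninjured library, so this gene was higher than uninjured muscle in both legs.

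Gel muscle was last compared with uninjured muscle. Here 9 of 46 kelch genes were called, 7 higher and 2 lower, or 19.6% beside 25.6% of all genes tested (14.5% higher and 11.1% lower). Groups did not overlap for 13 members (28.3%), and for 23.0% of all genes. The median log2 fold change was -0.04 for the members and 0.03 for all genes. Without gel library 3 the count was 19 (9 higher, 10 lower), when 38.3% of all genes were called. DESeq2 called 14 members and 29.5% of all genes. Klhdc2, Klhl22 and Kbtbd12 were among these members as lower, at -0.42, -0.32 and -0.65 (DESeq2 adjusted p = 0.0441, 0.0490 and 0.0480). In the same comparison macrophage markers were higher in 12 of 12 cases (median log2 fold change 4.16) and fibroblast markers in 5 of 10, and 3 of 10 fibre and 3 of 8 tested tendon markers were lower. Also higher were 1 of 9 satellite cell and 1 of 3 tested lymphocyte markers, and 2 of 10 endothelial markers were lower. Their part in the member results was not tested. The count was 6 without gel library 1 or 2, 5 without gel library 4 and 4 without uninjured library 3. Of all genes 23.9%, 17.7%, 16.8% and 18.0% were called without these libraries, in the same order. Klhl38 was the clearest fall, with each gel library but the third below every uninjured library, at -1.46 ± 0.25 (edgeR adjusted p = 0.00166), and this call held in each alternative run. The rise of Kbtbd11, at 1.75 ± 0.43 (adjusted p = 0.00813), held in each alternative that tested it. With halved counts Kbtbd11 was not tested. The rise of Klhl17, at 0.61 ± 0.14 (0.00513), held in each alternative run. Without gel library 3 these 3 genes were at -1.69, 1.91 and 0.63. Klhdc8b, at 0.87 ± 0.24 (0.0137), lost its call without gel library 4 (adjusted p = 0.0612) or without uninjured library 3 (0.0509). With gel library 3 left out it was at 0.97, Kbtbd13 at 0.67, Klhl2 at -0.92 and Klhl3 at 0.95, each still called.

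The other called members of this comparison, Klhl2, Klhl3, Klhl5 and Klhl6, each lost their call when any 1 of several libraries was left out. Klhl2 and Klhl3, which encode related actin-binding adaptors that direct WNK kinases to degradation, moved in opposite directions. Klhl2 was at 1.93, 5.76, 5.81 and 4.05 CPM in uninjured and 2.51, 1.84, 2.20 and 2.62 CPM in gel libraries; uninjured library 1 lay among the gel values, and the log2 fold change was -0.93 ± 0.31 (edgeR adjusted p = 0.0393). Its call failed with upper-quartile scaling (adjusted p = 0.0536), in limma voom (0.102), with only the compared groups in the fit (0.0655) or without any single one of gel libraries 1, 2 or 4 or uninjured libraries 2, 3 or 4 (0.0550 to 0.124). In PBS muscle Klhl2 was at 2.37, 2.07, 2.29 and 2.88 CPM, and without uninjured library 1 it passed there too, at -1.12 (adjusted p = 0.0277). Klhl3 was at 1.36, 3.30, 3.11 and 3.17 CPM in uninjured and 6.26, 5.49, 3.91 and 4.22 CPM in gel libraries, with uninjured library 1 the lowest, and the log2 fold change was 0.86 ± 0.28 (adjusted p = 0.0324), a call that failed with only the compared groups in the fit (adjusted p = 0.0681) or without any single one of gel libraries 1 or 2 or uninjured libraries 1 or 3 (0.0557 to 0.0852).

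Klhl5 was at 5.34, 5.64, 4.39 and 4.37 CPM in uninjured and 9.05, 11.7, 5.25 and 13.5 CPM in gel libraries, with gel library 3 inside the uninjured range, at 1.00 ± 0.28 (edgeR adjusted p = 0.0177), or 1.20 without gel library 3. Its call failed without any single one of gel libraries 2 or 4 or uninjured libraries 3 or 4 (adjusted p from 0.0533 to 0.0742). Klhl6, known from B cells, was scarce, at 0.910, 0.240, 0.676 and 0.253 CPM in uninjured and 2.73, 1.14, 0.733 and 2.22 CPM in gel libraries, where gel library 3 again overlapped. Its log2 fold change was 1.70 ± 0.58 (adjusted p = 0.0409), or 1.93 without gel library 3, and the call failed in limma voom (adjusted p = 0.0694), with only the compared groups in the fit (0.0538) or without any single one of gel libraries 1, 2 or 4 or PBS libraries 1, 2 or 3 or uninjured libraries 2, 3 or 4 (0.0513 to 0.122). The 11 lymphocyte markers summed to 2.10 to 3.65 CPM in uninjured and 2.93 to 18.7 CPM in gel libraries, and their part in the Klhl6 level was not tested. The macrophage sum was 1010, 1578, 99.7 and 1832 CPM in gel libraries 1 to 4. Gel library 3 was thus lowest for Klhl6, the lymphocyte sum and the macrophage sum. The highest gel library was library 1 for Klhl6 and library 4 for the macrophage sum. The part of macrophages in the Klhl6 level was not tested either. Among the muscle members, Klhl30 was at -0.42 ± 0.16 (adjusted p = 0.0681), with every gel library below every uninjured one. It passed without gel library 3 (adjusted p = 0.0158), PBS library 1 (0.0419) or PBS library 4 (0.0432), with the compared groups alone (0.0396), and in DESeq2 (0.0470). Klhl33 was at -0.23 ± 0.18 (0.378) and passed without gel library 3 (0.0140), and Klhl41 and Klhl31 were at 0.20 ± 0.19 and -0.13 ± 0.15 (0.469 and 0.549). Klhl40 was at -0.027 ± 0.16 (0.926), or 0.028 with upper-quartile scaling.

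The remaining 29 tested members were called in none of the comparisons. The highest of their group means was 1.04 to 2.29 times the lowest. Klhl12, the adaptor that enlarges the transport vesicles for collagen export, was at 10.6 ± 1.54 CPM (SD, n = 4) in uninjured, 10.8 ± 1.60 in PBS and 9.83 ± 1.99 in gel muscle, and the 95% interval of its gel minus PBS log2 fold change was -0.53 to 0.27. Klhl7 was at 29.7 ± 2.30, 28.5 ± 3.48 and 29.3 ± 4.93 CPM in the same order. Klhl20, an adaptor in cell death and stress pathways, was at 13.8 ± 0.756, 17.03 ± 2.40 and 16.4 ± 1.65 CPM. Klhdc3, a cullin 2 receptor and one of the most abundant members, missed the threshold and was at 202 ± 12.2, 179 ± 15.1 and 218 ± 13.9 CPM, and Klhdc10, another such receptor, at 41.4 ± 2.29, 46.6 ± 3.13 and 39.2 ± 4.11 CPM. Every gel library of Klhdc3 lay above every PBS library. Gel minus PBS log2 fold changes were 0.28 ± 0.11 for Klhdc3, with a 95% interval of 0.033 to 0.53, and -0.25 ± 0.11 for Klhdc10, with -0.49 to -0.0084 (edgeR adjusted p = 0.0642 and 0.0882). Both intervals exclude 0, and both genes passed in DESeq2 (adjusted p = 0.0281 and 0.0464). The interval of Klhl20 was -0.34 to 0.24. Klhl13, the paralog of Klhl9, was at 2.50, 1.80, 1.49 and 3.17 CPM in uninjured and 3.76, 4.07, 3.17 and 4.08 CPM in gel libraries, where gel library 3 was level with uninjured library 4 and the rest lay apart, and at 0.75 ± 0.28 (adjusted p = 0.0613). It passed in DESeq2 (adjusted p = 0.0403), in limma voom (0.0449) and without gel library 3 (0.0370). The widest ratio of group means among the 29 was 2.29, for Klhl36, at 0.910 ± 0.615, 1.15 ± 0.321 and 2.08 ± 1.10 CPM, followed by 2.17 for Klhl28, at 0.578 ± 0.286, 0.789 ± 0.447 and 0.364 ± 0.190 CPM. Both are scarce genes with wide spread. By mean level in uninjured muscle, the other uncalled members Kbtbd4, Klhl18 and Klhl26 ran from 10.9 (Kbtbd4) to 20.95 CPM (Klhl18). Kbtbd2, Kbtbd3, Kbtbd7, Klhdc1, Klhdc4, Klhl23, Klhl25, Klhl29, Klhl34 and Klhl42 lay lower, from 2.20 (Klhl25) to 9.65 CPM (Klhdc4). Kbtbd8, Klhl4 and Klhl15 were the scarcest, from 0.547 (Klhl15) to 0.971 CPM (Klhl4).

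The ligase that kelch adaptors serve was examined with lists of related genes. Of 28 genes for the cullin 3 ligase and for neddylation, which activates cullins, 10 were lower and 1 higher in gel than in PBS muscle, with a median log2 fold change of -0.27 (all genes, 0.04). Of all genes tested 13.2% were lower and 16.6% higher in this comparison, the background for each list. Cul3, the scaffold itself, went from 205 ± 10.8 to 124 ± 32.6 CPM and was at -0.73 ± 0.15 (edgeR adjusted p = 0.00390). Dcun1d2, a cofactor of neddylation, was at -0.65 ± 0.14, and the member that rose was Nedd8, the ubiquitin-like modifier, at 0.81 ± 0.14 (adjusted p = 0.00376 and 0.00191). Of 5 tested kelch-BTB genes with other names, 3 were lower: Keap1, the adaptor for NRF2, at -0.49 ± 0.14 (adjusted p = 0.0144), Ivns1abp at -0.57 ± 0.16 (0.0151) and Ipp at -1.02 ± 0.34 (0.0362). The Keap1 call failed with only the compared groups in the fit (adjusted p = 0.0514) or without gel library 4 (0.0506), and that of Ipp with only the compared groups in the fit (adjusted p = 0.0750) or without any single one of gel libraries 1 or 4 or PBS libraries 2 or 3 (0.0792 to 0.0981). Of 17 BTB adaptors without kelch repeats, 4 were lower and 1 higher, led by Tnfaip1 at -0.54 ± 0.11 (adjusted p = 0.00370). Spop was at -0.56 ± 0.16 (0.0160), a call that failed with only the compared groups in the fit (adjusted p = 0.0540) or without gel library 4 (0.0506). Btbd1 was at -0.47 ± 0.14 (0.0237), a call that failed with only the compared groups in the fit (adjusted p = 0.0723), in the fit blocked by animal (0.0652) or without any single one of gel libraries 1, 2 or 4 or PBS libraries 1, 2 or 3 (0.0519 to 0.0648).

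Leaving out gel library 3, the counts between gel and PBS muscle were 15 for the cullin 3 and neddylation list (14 lower), 3 for the other kelch-BTB genes, 10 for the BTB adaptors (7 lower), 3 for the cullin 2 ligase and 8 for the thin filament (8 lower). Of all genes 42.7% were called in that fit. Cul3, Dcun1d2 and Nedd8 were then at -0.91, -0.81 and 0.83. Keap1, Ivns1abp and Ipp were at -0.66, -0.70 and -1.07, and Tnfaip1, Spop and Btbd1 at -0.61, -0.76 and -0.63. Of the cullin 2 and thin-filament genes described next, Fem1a, Cul2 and Zyg11b were at -0.99, -0.66 and -0.83, and Nrap, Tmod1 and Mypn at -1.13, -1.34 and -0.83. Against uninjured muscle the counts without gel library 3 were 14, 2, 8, 2 and 14 in the same order of lists, when 38.3% of all genes were called. There Cul3, Dcun1d2 and Cops3 were at -0.95, -0.80 and -0.67, and Tnnt3, Tpm1 and Nrap at -0.81, -0.73 and -1.01. Keap1 and Fem1a were at -0.71 and -0.75, and Kctd13, Kctd5 and Spop at 1.08, 0.86 and -0.76.

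Between gel and PBS muscle 3 of 11 tested genes of the cullin 2 ligase, which Klhdc2, Klhdc3 and Klhdc10 serve, fell. These were Fem1a at -0.74 ± 0.17 (edgeR adjusted p = 0.00557), Cul2 at -0.55 ± 0.14 (0.00820) and Zyg11b at -0.59 ± 0.18 (0.0208), the last of which lost its call with only the compared groups in the fit (adjusted p = 0.0634) or without any single one of gel libraries 1, 2 or 4 or PBS library 1 (0.0541 to 0.0674). Of 19 thin-filament and nemaline myopathy genes 4 were lower, led by Nrap, a nebulin-related anchoring protein, at -0.92 ± 0.18, Tmod1, which caps thin filaments, at -1.11 ± 0.24, and Mypn at -0.62 ± 0.16 (adjusted p = 0.00318, 0.00494 and 0.00992). Medians of these lists were 0.10 for the cullin 2 ligase and -0.16 for the thin filament. Between gel and uninjured muscle 11.1% of all genes were lower in gel muscle and 14.5% higher. Against uninjured muscle, 6 cullin 3 and neddylation genes were lower and 1 higher in gel muscle, with Cul3 at -0.77 ± 0.15 (0.00259), Dcun1d2 at -0.64 ± 0.14 (0.00381) and Cops3, a subunit of the signalosome that removes NEDD8, at -0.49 ± 0.14 (0.0206), a call that failed without any single one of gel libraries 1 or 4 or uninjured libraries 3 or 4 (adjusted p from 0.0503 to 0.0651). Of the other lists, 1 of 5 kelch-BTB genes with other names was lower, Keap1 at -0.55 ± 0.14 (0.00895), and 1 of 11 cullin 2 ligase genes, Fem1a at -0.50 ± 0.17 (0.0417), a call that failed with upper-quartile scaling (adjusted p = 0.0527), with only the compared groups in the fit (0.0633) or without any single one of gel libraries 1, 2 or 4 or PBS libraries 1, 2 or 3 or uninjured libraries 1, 2, 3 or 4 (0.0508 to 0.111). Of 17 BTB adaptors without kelch repeats 3 were lower and 2 higher, and the smallest p was that of Kctd13 at 0.96 ± 0.23 (0.00674). Kctd5 was at 0.72 ± 0.20 (0.0169), a call that failed without gel library 2 (adjusted p = 0.0526), without gel library 4 (0.0818) or without uninjured library 4 (0.0566). Spop was at -0.56 ± 0.16 (0.0169), a call that failed without gel library 4 (adjusted p = 0.0503). Of the thin-filament genes 9 were lower and 2 higher, led by Tnnt3 at -0.69 ± 0.13 (0.00224), Tpm1 at -0.65 ± 0.13 (0.00280) and Nrap at -0.79 ± 0.18 (0.00592).

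Between PBS and uninjured muscle few genes of these lists passed. Of 28 cullin 3 and neddylation genes 1 rose: Ube2d1, a ubiquitin-conjugating enzyme, from 242 ± 17.4 to 379 ± 16.99 CPM, at 0.64 ± 0.17 (edgeR adjusted p = 0.0357). This call failed without any single one of gel library 2 or PBS libraries 1, 2, 3 or 4 or uninjured libraries 1, 2, 3 or 4 (adjusted p from 0.0520 to 0.115). Of 19 thin-filament genes 1 rose and 2 fell. The one that rose was Lmod3, the leiomodin that KLHL40 protects, from 100.1 ± 4.65 to 159 ± 29.9 CPM, at 0.67 ± 0.14 (adjusted p = 0.0118), a call that failed without PBS library 2 (adjusted p = 0.0524) or without uninjured library 3 (0.0535). Tnni2, at -0.50 ± 0.13 (0.0355), lost its call with no filter on low counts (adjusted p = 0.0729) or without any single one of PBS libraries 1, 2 or 4 or uninjured libraries 1, 2, 3 or 4 (0.0738 to 0.120). Tpm1, at -0.49 ± 0.13 (0.0363), lost it with no filter on low counts (adjusted p = 0.101) or without any single one of PBS libraries 1, 2, 3 or 4 or uninjured libraries 1, 2, 3 or 4 (0.0605 to 0.124). The share of all genes called, for comparison, was 6.17% here (2.79% higher, 3.39% lower), 29.8% in gel against PBS and 25.6% in gel against uninjured muscle.

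Some members overlap other genes, and the strand setting of the counts is not given, so reads from both cannot be told apart. In GENCODE M21 an antisense gene, Gm15943, covers 65.4% of the exon length of Klhl38. Transcripts on the opposite strand cover 25.4% of Kbtbd11, 20.5% of Klhl21, 19.2% of Klhl40, 15.8% of Klhl9, 8.71% of Klhdc2 (Nemf) and 4.00% of Klhdc8b (Ccdc71). Among the uncalled members, Kbtbd4 shares 63.3% of its exon length with Ptpmt1.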

How the data were processed

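The 12 RNA-seq libraries are of tibialis anterior, 4 per group. The deposited values are read counts per gene symbol, not normalised by the authors, and alignment was with STAR, per the file headers; the submitters' processing notes also name build mm39 and edgeR. The counting program, annotation, strand setting and versions are named in no source used here. Even counts prevailed, as the report gives.

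From these counts, edgeR 4.0.16 (R 4.3.3) was run (filterByExpr with a minimum count of 10, trimmed mean of M values, robust quasi-likelihood fit of all 12 libraries with 1 coefficient per group, 9 residual degrees of freedom), after a check on simulated data. P-values were adjusted (Benjamini-Hochberg) over all 13499 genes, with a threshold of 0.05. The SE was taken from the log2 fold change and the F statistic. The 95% intervals used this SE and the t distribution with 9 degrees of freedom. The degrees of freedom of the tests were not fixed at 9, so an interval and its p can differ near 0. Log2 CPM used a prior count of 2. Each group's 4 libraries have different animal numbers in the deposited names, and 1 animal's left and right leg gave the gel and PBS library of the same number. Deviations from the group means of same-numbered libraries correlated at r = 0.143, -0.0559, 0.311 and 0.0797 across genes. Those of differently numbered gel and PBS libraries correlated at r from -0.267 to 0.196, a range that holds all same-numbered values but 0.311. The numbers pair legs of the same animals, so the blocked value stands beside each call it changes. Libraries within a group differed by more than sampling noise (chi-square per gene of 3.25 or more, on halved counts).

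Alternatives were other scalings and filters, DESeq2 1.42.0, limma 3.58.1 with voom, the compared groups alone, the block, each library left out, and, chosen after seeing the data, halved counts and leaving out gel library 3 and uninjured library 1 together. Members and gene lists were chosen with earlier results of these data known. Fold changes were given for called members and the 6 muscle members, and up to 3 called genes of each list. Kelch genes named for being gained under an alternative, and promoters shown, were chosen after their values were seen. RefSeq promoters were found for 47 of the 56 matched symbols. Promoters on chr18 were left out of the search, for members and for all promoters alike.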

Additional observations from a re-analysis of the deposited data

Results flagged for a closer look

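A library was singled out where its gap to the nearest of the other three, divided by the range of the 4 log2 CPM values of its group, was above Dixon's 95% critical value for 4 samples. Among 138 groups of 4 (46 genes in 3 groups) 8 passed, and chance gives about 1 in 20. Kbtbd13 in PBS library 1 was at 21.5 CPM, below the other three at 26.3 to 26.9 CPM (gap over range 0.901). Kbtbd7 in PBS library 1 was at 3.65 CPM, below the other three at 4.69 to 4.92 CPM (gap over range 0.840). Klhl25 in uninjured library 4 was at 1.27 CPM, below the other three at 2.39 to 2.58 CPM (gap over range 0.889). Klhl26 in gel library 2 was at 8.80 CPM, below the other three at 13.6 to 14.5 CPM (gap over range 0.878). Klhl26 in uninjured library 1 was at 16.997 CPM, above the other three at 13.1 to 13.3 CPM (gap over range 0.947). Klhl3 in uninjured library 1 was at 1.36 CPM, below the other three at 3.11 to 3.30 CPM (gap over range 0.932). Klhl33 in uninjured library 1 was at 126 CPM, below the other three at 155 to 159 CPM (gap over range 0.879). Klhl6 in PBS library 4 was at 0.240 CPM, below the other three at 0.916 to 1.14 CPM (gap over range 0.847). Uninjured library 1 accounts for 3 of the 8, and PBS library 1 for 2.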

How the results depend on the processing

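Scaling by DESeq2 size factors or the upper quartile, other filters on low counts, limma voom and halved counts left the number of kelch genes called within 1.5 times the reported 3, 13 and 9. With the animal as a replicate block, in a fit of the gel and PBS libraries alone, 10 were called (22.5% of all genes). The same libraries without the block gave 9 (19.3%). In the blocked fit the calls of Kbtbd11, Kbtbd13, Klhdc2, Klhl24, Klhl9 and Btbd1 were lost, and no other call named. Of these, Kbtbd13, Klhdc2, Klhl9 and Btbd1 were also lost in the same libraries without the block, while Kbtbd11 and Klhl24 were called there. DESeq2 called 14 between gel and uninjured muscle (29.5% of all genes), and the compared groups alone gave 6 between PBS and uninjured muscle (18.3% of all genes). Leaving out 1 library gave 1 to 5 for PBS against uninjured, 8 to 20 for gel against PBS and 4 to 19 for gel against uninjured. Of all genes 2.71% to 12.1%, 18.1% to 42.7% and 16.8% to 38.3% were then called. Without gel library 3 and uninjured library 1 together the counts were 7, 20 and 17, with 9.39%, 41.7% and 34.4% of all genes called. The cause was not tested. Of 1522 alternative fold changes of 71 named results, 1334 kept direction and side of the threshold, 145 fell short of it, 23 newly passed and 20 changed sign, of which 0 were of called genes. Sign changes concern Klhl30, Klhl31 and Klhl40, near 0: with 1 library left out the log2 fold changes ran from -0.041 to 0.20 for Klhl40 in PBS against uninjured, -0.15 to 0.054 for Klhl40 in gel against PBS, -0.11 to 0.13 for Klhl40 in gel against uninjured, -0.16 to 0.094 for Klhl30 in PBS against uninjured, -0.073 to 0.13 for Klhl31 in gel against PBS. With upper-quartile scaling Klhl30 was at 0.011 (PBS against uninjured) and Klhl40 at 0.028 (gel against uninjured). Without gel library 3 and uninjured library 1 together, Klhl30 and Klhl40 were at 0.021 and -0.0081 (PBS against uninjured) and Klhl31 at -0.039 (gel against PBS). Because a fragment appears mostly to add 2 counts, members near 10 counts rest on few fragments. With halved counts 42 members were tested, and Kbtbd11 was not among them. Counts of called list genes were less stable: 86 alternative counts differed from the reported one by over 1.5 times and 234 did not. For the cullin 3, other kelch-BTB, BTB adaptor, cullin 2 and thin-filament lists in that order, leaving out 1 library gave 7 to 15, 1 to 3, 1 to 10, 2 to 3 and 4 to 8 for gel against PBS, 2 to 14, 1 to 2, 1 to 8, 0 to 2 and 6 to 14 for gel against uninjured, and 0 to 2, 0, 0, 0 to 2 and 0 to 7 for PBS against uninjured. The compared groups alone gave 7, 1, 1, 2 and 5, then 4, 1, 4, 0 and 9, then 3, 1, 1, 3 and 7. Of all genes 19.3%, 22.6% and 18.3% were called in these fits. With upper-quartile scaling gel against uninjured had 3 BTB adaptors and 0 cullin 2 genes, and with the block gel against PBS had 2 BTB adaptors. DESeq2 gave 8 and 7 thin-filament genes for gel against PBS and PBS against uninjured, and limma voom 7 for gel against PBS.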

Other observations

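A ratio of counts between a pair of genes in the same library does not depend on how libraries are scaled. Klhl41 counts divided by Klhl40 counts gave 4.15, 2.57, 3.82 and 4.50 in uninjured libraries 1 to 4, 5.88, 5.20, 4.96 and 5.21 in PBS libraries and 3.47, 4.39, 4.95 and 3.87 in gel libraries. Each PBS library lay above every uninjured and gel library, with gel library 3 at 4.95 next to PBS library 3 at 4.96. Kbtbd13 counts divided by Kbtbd12 counts gave 0.623, 0.527, 0.561 and 0.537 in uninjured, 1.02, 1.00, 0.940 and 1.67 in PBS and 1.71, 1.01, 1.40 and 2.59 in gel libraries, so that every uninjured library lay below every library of the other groups. These pairs were chosen after their values were seen, and the ratios are given with no test.

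Klhl32, below the count rule, had 4, 4, 4 and 4 counts in gel libraries 1 to 4, 0, 2, 0 and 0 in PBS and 2, 0, 0 and 0 in uninjured libraries. Klhl10 had 7, 11, 1 and 26 counts in gel, 2, 2, 0 and 7 in PBS and 0, 6, 2 and 2 in uninjured libraries, with gel libraries 2 and 4 highest. The levels of Klhl2 and Klhl38 in uninjured library 1, 1.93 and 30.1 CPM, were each the lowest of the uninjured group, where the others were at 4.05 or more and 59.9 or more.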
